A study of Sus scrofa with 12 samples.

Results

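The miRNAs described here come from the imprinted DLK1-DIO3 locus. They were chosen by name, as the entries of the small RNA tables whose number after ssc-miR- belongs to a miRNA gene known from this locus in mammals, with any letter or arm. The rule covered 36 numbers, of which 15 were found, and these gave 20 names, which stood in the tables beside 391 other miRNA names. The names were ssc-miR-127, ssc-miR-136, ssc-miR-299, ssc-miR-323, ssc-miR-369, ssc-miR-370, ssc-miR-376a-3p, ssc-miR-376a-5p, ssc-miR-376b, ssc-miR-376c, ssc-miR-381, ssc-miR-382, ssc-miR-411, ssc-miR-432-3p, ssc-miR-432-5p, ssc-miR-487b, ssc-miR-493-3p, ssc-miR-493-5p, ssc-miR-494 and ssc-miR-758. The study compared the liver of Jinhua (JH) pigs, a Chinese breed that lays down much fat, with that of Landrace (LD) pigs, a lean breed. Each breed was represented by 3 uncastrated males aged 70 days, and each pig gave 1 small RNA library and 1 mRNA library. The study names LD as the control group in its mRNA comparison, and breed is the factor that separates the groups. The samples were pieces of whole liver, in which fewer cells of a type and less RNA per cell cannot be told apart.

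The DLK1-DIO3 locus is a cluster of imprinted genes, in which each gene is read from the chromosome of 1 parent. The paternal copy gives the protein-coding genes DLK1, a membrane protein that holds back the maturation of fat cells, RTL1, which came from a retrotransposon, and DIO3, the enzyme that inactivates thyroid hormones. The maternal copy gives the long noncoding RNA MEG3 and, downstream of it, one of the largest groups of miRNA genes in mammals, whose members are thought to be cut from long shared transcripts. MiR-127 lies opposite RTL1 and can direct the cutting of its mRNA. In mammals the locus is most active in the fetus, the placenta and the brain, and adult liver is known for low levels.

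The RefSeq gene table of assembly Sscrofa11.1 was used for the order of genes, and no coordinates are given because the study used an earlier build. Of the 20 names, 10 matched a miRNA gene in that table and 10 did not. At the end of chromosome 7 the order was DLK1, MEG3, MIR493, RTL1, MIR127, MIR432 and MIR136. MIR376C, MIR376A, MIR381 and DIO3 stood in this order, with other genes between them, on a scaffold without a chromosome. The members were therefore also described in 2 groups that follow the order known from other mammals. The upstream group lies around RTL1 and held 7 names, which were ssc-miR-127, ssc-miR-136, ssc-miR-370 and both arms of ssc-miR-432 and ssc-miR-493. The downstream group, the long miR-379 to miR-656 array, held the other 13.

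The values are RPM, the reads of a miRNA per 1000000 clean reads of its library. They stepped by what a single read is worth, which gave 10672375 to 13932322 clean reads per library. The smallest value above 0 was worth 10 reads in these tables. A listed 0 may therefore stand for as many as 9 reads, or 0.646 to 0.843 RPM depending on the library. Such read numbers describe counting error alone, because PCR copies are not independent molecules.

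The locus gave little miRNA in these livers, and more in LD than in JH. The 20 names summed to 24.4 RPM in JH1, 70.6 RPM in JH2 and 55.8 RPM in JH3, and to 174 RPM in LD1, 94.6 RPM in LD2 and 207 RPM in LD3. Every LD library was above every JH library. JH averaged 50.2 ± 23.6 RPM and LD 158 ± 57.7 RPM (SD, n = 3 each), a 3.15-fold difference of the means. The sums rested on 308 to 861 reads in JH and 1203 to 2884 reads in LD. JH1 was the lowest library and LD2 was the lowest of its breed.

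**Figure D1:**
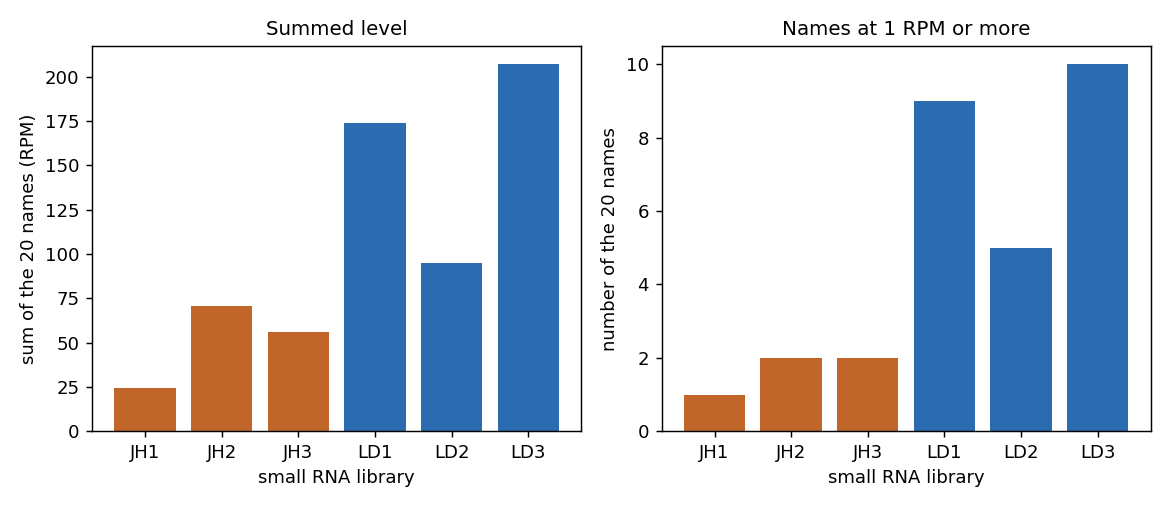
Left, the summed RPM of the 20 DLK1-DIO3 miRNA names in each small RNA library, and right, how many of the 20 names reached 1 RPM, with JH in orange and LD in blue and 1 pig per bar. The sums ran from 24.4 to 70.6 RPM in JH and from 94.6 to 207 RPM in LD, and 1 or 2 names reached 1 RPM in JH against 5 to 10 in LD.

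The LD libraries also held more of the members. A level of 1 RPM, which lies above the value of 10 reads in all 6 libraries, was reached by 1 name in JH1, 2 in JH2 and 2 in JH3, and by 9 in LD1, 5 in LD2 and 10 in LD3. Among the 391 other names the same level was reached by 227 to 233 in JH and by 233 to 237 in LD, so the breeds met at 233. Counted above 0, these other names numbered 236 in each JH library and 239 to 242 in LD. Most of them lay well above 1 RPM in every library or were listed at 0 in all 6 libraries. A change of a few fold would therefore move few of them across 1 RPM. Apart from ssc-miR-127 and ssc-miR-370, no member passed 3.52 RPM, so this background is not matched to the members in level. The members above 0 numbered 2 to 5 in JH and 6 to 11 in LD. Of the 20 names, 11 were above 0 in at least 1 library, and the mean of each of these 11 was higher in LD with a listed 0 taken as 0. For ssc-miR-136 and ssc-miR-299, found in LD3 alone, the listed zeros leave the direction unknown. Their LD means were 0.239 and 0.526 RPM, while 9 reads for each listed 0 would give JH 0.765 RPM. The remaining 9 names were listed at 0 in all 6 libraries, namely ssc-miR-376a-3p, ssc-miR-376a-5p, ssc-miR-376b, ssc-miR-376c, ssc-miR-381, ssc-miR-432-3p, ssc-miR-487b, ssc-miR-493-3p and ssc-miR-494. Of the other 391 names, 255 were above 0 in at least 1 library. At this depth such a name may be present at up to 9 reads in each library.

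**Figure D2:**
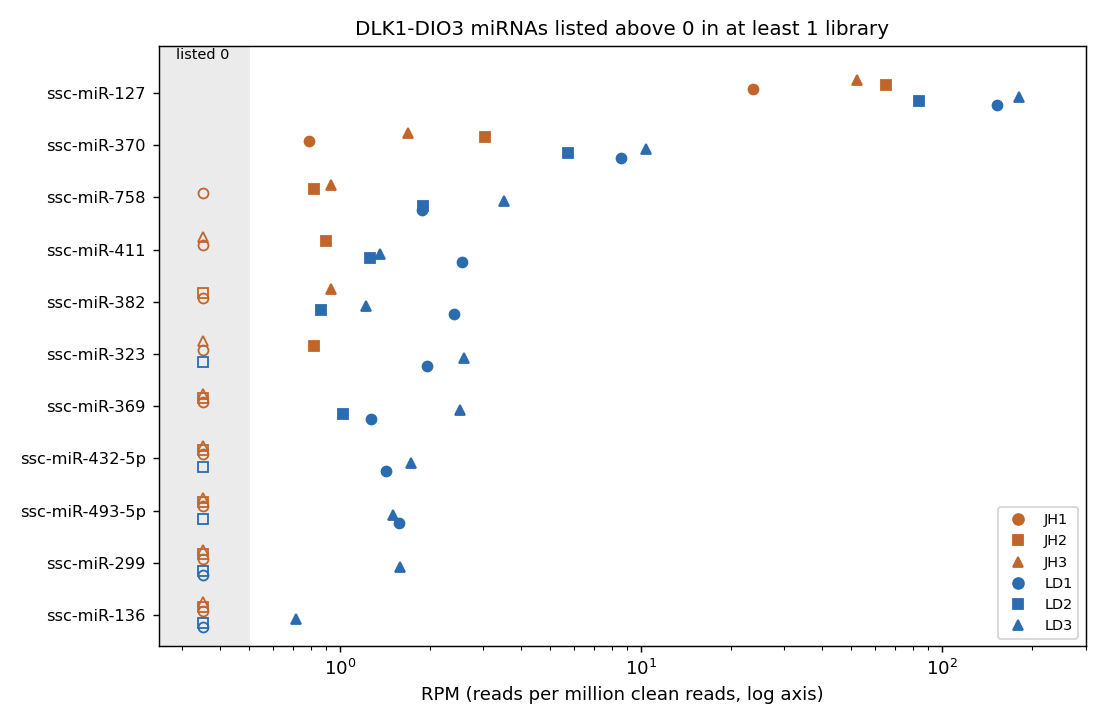
RPM on a log axis of the 11 DLK1-DIO3 miRNAs that were above 0 in at least 1 library, ordered by their mean, with 1 point per library (orange JH, blue LD, and a shape for each replicate number). Open symbols in the grey band are listed zeros. The points of ssc-miR-127 lie between 23.6 and 180 RPM and those of ssc-miR-370 between 0.792 and 10.4 RPM, and no other member passes 3.52 RPM.

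The breeds were compared with limma on log2(RPM + 0.5) over all 241 miRNAs with at least 1 RPM in at least 3 libraries, and fold changes are LD over JH. On this scale the fold change of low miRNAs depends on the pseudocount and on what a listed 0 stands for. A miRNA was called at an unadjusted p under 0.05 and an absolute log2 fold change above 1. Of the 241 miRNAs, 25 (10.4%) were called higher in LD and 5 (2.07%) higher in JH. This split depended on the scaling, with 10 and 10 once each library had the same median and 12 and 8 under quantile normalization. Of the members, 5 were tested, and these were ssc-miR-127, ssc-miR-369, ssc-miR-370, ssc-miR-411 and ssc-miR-758. All 5 were called higher in LD, and 3 of them (ssc-miR-127, ssc-miR-369 and ssc-miR-370) also had an adjusted p under 0.05, as had 21 (8.71%) of all tested miRNAs with a fold change in this direction past the limit. However, ssc-miR-369, ssc-miR-411 and ssc-miR-758 reached 1 RPM in no JH library, so they entered the test through the LD libraries and had to differ. No other tested miRNA entered in this way through either breed. The test bears on the comparison mainly through ssc-miR-127 and ssc-miR-370.

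The most abundant member was ssc-miR-127, the miRNA opposite RTL1, whose mean ranked 102 among all names. Its expression was 23.6 RPM in JH1, 65.0 RPM in JH2, 52.2 RPM in JH3, 152 RPM in LD1, 83.9 RPM in LD2 and 180 RPM in LD3. The lowest LD value was above the highest JH value, which was so for 72 (29.9%) of the 241 tested miRNAs, while 9 (3.73%) had all JH values above all LD values. JH averaged 46.9 ± 21.2 RPM and LD 139 ± 49.4 RPM (SD, n = 3 each). The log2 fold change was 1.60 ± 0.39 (SE), and limma gave it an adjusted p of 0.0216. The exact permutation test of the 6 values, two-sided, gave p = 0.1, and groups of 3 cannot give a smaller value. The counts behind these values were 298 to 793 reads in JH and 1066 to 2506 reads in LD, so ssc-miR-127 is the best measured member. Over 15 alternative fits its log2 fold change stayed between 1.17, without JH1, and 1.93, without LD2, while its adjusted p ran from 0.00395 to 0.167 and was under 0.05 in 9 of them. Among the other scalings and left-out libraries, the adjusted p of ssc-miR-127 was above 0.05 under quantile normalization (0.167), with the same median in each library (0.136), without JH1 (0.0637), without LD1 (0.0541) and without LD3 (0.0911).

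The study discusses ssc-miR-370 in connection with the oxidation of fatty acids. It was at 0.792 RPM in JH1, 3.03 RPM in JH2, 1.69 RPM in JH3, 8.62 RPM in LD1, 5.74 RPM in LD2 and 10.4 RPM in LD3. JH1 was the lowest and LD3 the highest, and the breeds did not overlap. JH averaged 1.84 ± 1.13 RPM and LD 8.26 ± 2.35 RPM (SD, n = 3 each). The log2 fold change was 1.99 ± 0.40 (SE), and the adjusted p from limma was 0.0112. Its reads were few in JH, with 10, 37 and 18 in the 3 libraries, against at least 73 in each LD library. The exact permutation test again gave p = 0.1. Over 15 alternative fits the adjusted p of ssc-miR-370 ran from 0.00498 to 0.0908 and was under 0.05 in 12. It was 0.0908 under quantile normalization, 0.0728 with the same median in each library and 0.0534 without LD3.

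**Figure D3:**
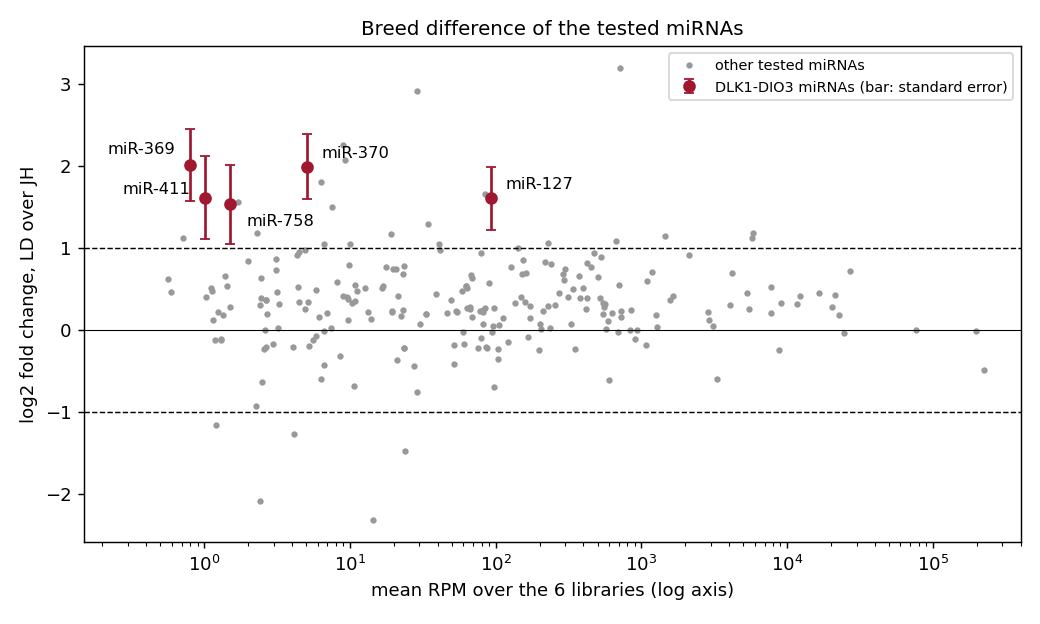
Log2 fold change of LD over JH against the mean RPM over the 6 libraries (log axis) for the 241 tested miRNAs, with the 5 tested DLK1-DIO3 miRNAs in red and their standard errors as bars. Dashed lines mark a log2 fold change of 1 in each direction. The 5 members lie between 1.53 and 2.01, where the median of all tested miRNAs is 0.30, but ssc-miR-369, ssc-miR-411 and ssc-miR-758 were tested only through their LD values.

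The low members of the downstream group were near the limit of listing in JH. In this group ssc-miR-369 was listed at 0 in all JH libraries and at 1.27 RPM in LD1, 1.02 RPM in LD2 and 2.51 RPM in LD3. With 9 reads in each JH library, the most that a listed 0 allows, it was at least 2.10-fold higher in LD. Its fitted log2 fold change of 2.01 ± 0.44 (SE, adjusted p = 0.0137 from limma) depends on the pseudocount and sets no bound.

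The expression of ssc-miR-758 was 0 in JH1, 0.82 RPM in JH2, 0.937 RPM in JH3, 1.87 RPM in LD1, 1.89 RPM in LD2 and 3.52 RPM in LD3. Both JH values above 0 stood for 10 reads, the fewest that any value stands for. With 9 reads in JH1 the difference of the means was at least 2.95-fold. Limma gave ssc-miR-758 a log2 fold change of 1.53 ± 0.48 (SE) and an adjusted p of 0.0579. That of ssc-miR-411 was 0 in JH1, 0.902 RPM in JH2, 0 in JH3, 2.55 RPM in LD1, 1.26 RPM in LD2 and 1.36 RPM in LD3. The difference was at least 2.10-fold, with a log2 fold change of 1.61 ± 0.51 (SE) and the same adjusted p of 0.0579. In both miRNAs all LD values were above all JH values, which the filter fixed, since they entered through LD alone.

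A further 6 names were above 0 in some library but did not reach 1 RPM in 3 libraries and were not tested. The most widely found was ssc-miR-382, which was at 0.937 RPM in JH3, 2.40 RPM in LD1, 0.865 RPM in LD2 and 1.22 RPM in LD3 and was listed at 0 in JH1 and JH2. Its breeds overlapped, since LD2 was under JH3, and the difference of the means was at least 1.88-fold. For ssc-miR-323 the values were 0.82 RPM in JH2, 1.95 RPM in LD1 and 2.58 RPM in LD3, with a listed 0 elsewhere. The value in JH2 was worth 10 reads, and the listed 0 in LD2 allows 9. The 5p arms of 2 hairpins were found in LD1 and LD3 and listed at 0 in the other 4 libraries, ssc-miR-432-5p at 1.42 and 1.72 RPM and ssc-miR-493-5p at 1.57 and 1.51 RPM. Their 3p arms were listed at 0 throughout. LD3 was the library with the most members and the one with ssc-miR-299 at 1.58 RPM and ssc-miR-136 at 0.718 RPM, both listed at 0 in the other 5 libraries. In all, 5 of the 20 names were above 0 in LD while at 0 in all JH libraries and none showed the opposite, against 9 and 7 of the 391 other names. Most of the other names lay far above the limit of listing or were listed at 0 throughout, so they are not matched to the members in level. Among the 5 is ssc-miR-136, whose 0.718 RPM in LD3 stood for 10 reads. As 10 reads are worth 0.792 RPM in JH1, 0.82 RPM in JH2 and 0.937 RPM in JH3, this level would be listed at 0 there.

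The proportions of the members were also compared, as values without a test. The RPM of ssc-miR-127 was 29.8 times that of ssc-miR-370 in JH1, 21.4 times in JH2 and 30.9 times in JH3. In LD the ratio was 17.6 in LD1, 14.6 in LD2 and 17.3 in LD3, below every JH ratio. It averaged 27.4 ± 5.19 for JH and 16.5 ± 1.66 for LD (SD, n = 3 each). The JH1 ratio rests on 10 reads of ssc-miR-370, and the nearest ratios of the breeds, in JH2 and LD1, on 37 and 115. The share of ssc-miR-127 in the sum of the 20 names was 92.1% to 96.8% in JH and 86.9% to 88.6% in LD. Without ssc-miR-127 the sum averaged 3.31 ± 2.40 RPM for JH and 19.9 ± 8.33 RPM for LD (SD, n = 3 each). The downstream group made up 0%, 3.60% and 3.36% of the sum in JH1, JH2 and JH3. It made up 5.78%, 5.32% and 6.17% in LD1, LD2 and LD3. All of these sums and shares except the ratio are moved by listed zeros, which were more frequent in JH.

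**Figure D4:**
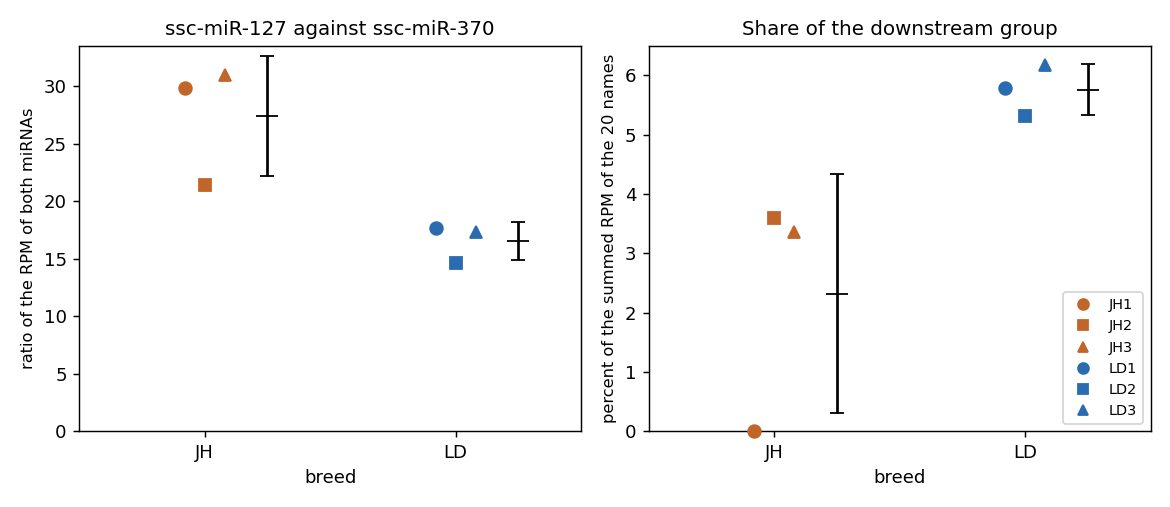
Left, the ratio of the RPM of ssc-miR-127 to that of ssc-miR-370, and right, the share of the downstream group in the summed RPM of the 20 names, with 1 point per library and the mean ± SD of 3 libraries beside them. The ratio lies between 21.4 and 30.9 in JH and between 14.6 and 17.6 in LD, and the share between 0% and 3.60% in JH and between 5.32% and 6.17% in LD.

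The members were also compared with other miRNAs within the breeds. After the breed means were taken away, ssc-miR-370 and ssc-miR-127 correlated with the mean of the 5 tested members, which includes them and so raises the value, with r = 0.996 and r = 0.979 over the 6 libraries. The value was 0.847 for ssc-miR-758, 0.67 for ssc-miR-411 and 0.484 for ssc-miR-369. These lower values rest in part on listed zeros, in JH1 for ssc-miR-758, JH1 and JH3 for ssc-miR-411 and every JH library for ssc-miR-369. The miRNAs outside the locus most like this mean were ssc-miR-503 (r = 0.965), ssc-miR-222 (r = 0.95), ssc-miR-2411 (r = 0.924), ssc-miR-342 (r = 0.907) and ssc-miR-708-5p (r = 0.904). All 5 exceeded ssc-miR-758, ssc-miR-411 and ssc-miR-369. These are descriptions of 6 libraries, whose values share a common depth, and they are the highest of 236 values. In the RefSeq order the gene of ssc-miR-342 stands next to EVL, before DLK1 on the same chromosome. It is singled out for this place after its values were seen. JH averaged 27.9 ± 4.94 RPM and LD 54.8 ± 6.16 RPM of ssc-miR-342 (SD, n = 3 each). Its log2 fold change was 0.97 ± 0.22 (SE) with an adjusted p of 0.017 from limma, just short of the fold change limit. Another miRNA gene before DLK1, MIR345-1, differed less. Its ssc-miR-345-3p was at 9.34 to 10.9 RPM in JH and 14.6 to 15.2 RPM in LD. The breeds overlapped in ssc-miR-345-5p, at 1.15 to 3.56 RPM in JH and 2.51 to 2.91 RPM in LD.

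The long transcripts of the locus were at the edge of detection in the mRNA libraries, whose values are RPKM, reads scaled to gene length and library size. MEG3, the noncoding RNA of the maternal copy, was listed at 0 in all 3 JH libraries and at 0.204 RPKM in LD1, 0.0918 RPKM in LD2 and 0.0916 RPKM in LD3. Corrected for library depth these values stand as 2 to 1 to 1, so they may rest on as few as 4 reads in all. DLK1 was at 0.147 RPKM in LD1 and at 0 in the other 5 libraries. RTL1 was listed at 0 in every library, but so was APOB, a gene that every liver expresses, and a listed 0 in the mRNA files therefore does not show that a transcript was absent. DIO3 was at 0.33 RPKM in JH1, 0.245 RPKM in JH2, 0 in JH3, 0.468 RPKM in LD1, 1.02 RPKM in LD2 and 0.36 RPKM in LD3. The lowest LD value was just above the highest JH value, a separation in this direction seen in 12.5% of the tested genes. Corrected for library depth the DIO3 values stand as 4, 4 and 0 in JH and 7, 17 and 6 in LD. They may thus rest on as few as 38 reads in all. LD2 had the highest DIO3 and the lowest member sum of its breed. None of these 4 genes reached 0.5 RPKM in at least 3 libraries, and they were not tested.

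Of the 17 gene symbols listed for the locus and its flanks 11 were in the files and 7 were tested, with limma on log2(RPKM + 0.1) over 12991 genes. WARS and WARS1 on this list are symbols of the same gene, found as WARS. Genes were called at an adjusted p under 0.05 and an absolute log2 fold change above 1, which 310 genes (2.39%) met. None of the 7 was called, and 2 were at an unadjusted p under 0.05, as were 2320 (17.9%) of all tested genes. These were SLC25A47, a mitochondrial carrier made mainly in liver, and its neighbour SLC25A29, a mitochondrial carrier of basic amino acids, which both lie before DLK1. SLC25A47 was at 599 RPKM in JH1, 358 RPKM in JH2, 99.3 RPKM in JH3, 75.2 RPKM in LD1, 81.4 RPKM in LD2 and 18.8 RPKM in LD3. SLC25A29 was at 12.4 RPKM in JH1, 12.5 RPKM in JH2, 5.87 RPKM in JH3, 3.70 RPKM in LD1, 3.30 RPKM in LD2 and 1.54 RPKM in LD3. Both genes lay higher in every JH than in every LD library, opposite to the miRNAs, a separation seen in 1407 (10.8%) of the tested genes. For LD over JH, the log2 fold change of SLC25A47 was -2.51 ± 0.71 (SE) and that of SLC25A29 -1.83 ± 0.41 (SE), with an adjusted p from limma of 0.114 and 0.0559. Replicate 3 was the lowest of each breed for both genes. The ribosomal RNA gene RN18S was highest in JH3 (62257 RPKM) and next highest in LD3 (20160 RPKM), against 1570 to 7309 RPKM elsewhere. Without JH3 both SLC25A47 and SLC25A29 were called in limma, with log2 fold changes of -3.25 (adjusted p = 0.0331) and -2.18 (adjusted p = 0.0298). Without any of the other 5 libraries neither was called. The adjusted p from limma then lay between 0.173 and 0.263 for SLC25A47 and between 0.116 and 0.15 for SLC25A29. Without LD3 the log2 fold change was -1.82 for SLC25A47 and -1.45 for SLC25A29.

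The other 5 tested genes near the locus did not pass. EVL, a regulator of actin, had a log2 fold change of -0.14, WARS, the tRNA synthetase of tryptophan, -0.34, WDR25 0.34, DYNC1H1, the heavy chain of cytoplasmic dynein, 0.09, and HSP90AA1, a chaperone, -0.53. Their adjusted p from limma lay between 0.374 and 0.905. Imprinted genes at other loci were read beside them. Of 20 listed, 16 were in the files and 11 were tested, none was called in limma, and 4 were at an unadjusted p under 0.05, beside the 17.9% of all tested genes. The median log2 fold change of the 11 was -0.06, against -0.04 for all tested genes. Among these 4, which their p had picked, the breeds did not overlap in NNAT, MEST and NAP1L5 and overlapped in SGCE. Of all tested genes, 10.8% had every JH value above every LD value and 12.5% the reverse. NNAT averaged 3.76 ± 1.28 RPKM for JH and 0.924 ± 0.597 RPKM for LD (SD, n = 3 each). MEST averaged 1.41 ± 0.304 and 0.467 ± 0.148 RPKM, and NAP1L5 0.705 ± 0.487 and 2.12 ± 0.352 RPKM, in the same order. NNAT and MEST thus lay on the JH side and NAP1L5 on the LD side.

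**Figure D5:**
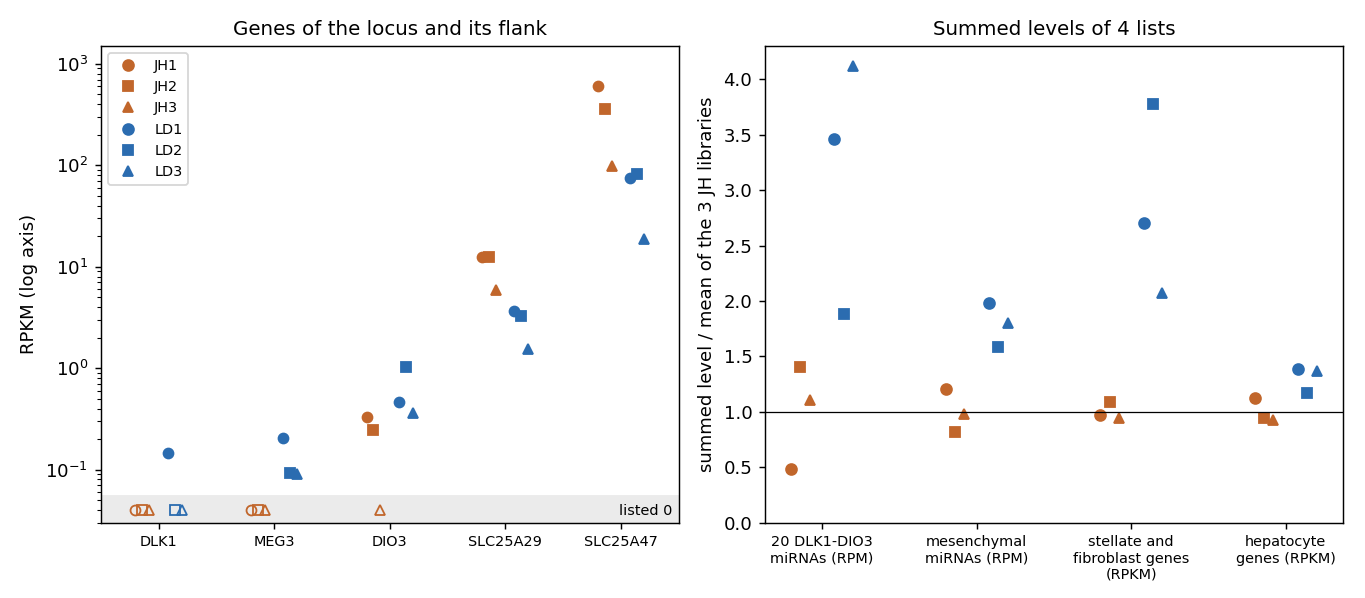
Left, RPKM on a log axis of DLK1, MEG3, DIO3 and the flanking genes SLC25A29 and SLC25A47, with 1 point per mRNA library and listed zeros as open symbols in the grey band. Right, the summed level of 4 lists in each library divided by the mean of the 3 JH libraries. MEG3 is above 0 in the 3 LD libraries and in no JH library. In the sums, LD2 is the lowest LD library for the DLK1-DIO3 miRNAs and the highest for the stellate and fibroblast genes.

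Markers of other liver cells moved with the breed as well, and their part in the miRNA difference was not tested. Stellate cells are the fat-storing pericytes of the liver and make its collagen. Of 13 tested stellate and fibroblast genes 6 were called higher in LD and none higher in JH, with a median log2 fold change of 1.72, where 177 (1.36%) of all tested genes were called higher in LD. The 6 were COL1A1, COL1A2, COL3A1 and COL6A3, which are collagens, SPARC, a matrix protein, and LRAT, the enzyme that stores retinol. The list summed to 135 to 156 RPKM in JH and to 387 RPKM in LD1, 540 RPKM in LD2 and 297 RPKM in LD3. The 6 calls fell to 3 without JH1, 1 without LD1 and 2 without LD2. LD2 was the highest library of its breed in the sum of this list and the lowest in the member sum, and LD3 the reverse. The sum is led by abundant genes, and single genes differed. LD2 was the highest of its breed for COL1A1 (89.7 RPKM) and COL3A1 (165 RPKM), but the lowest for LUM (0.719 RPKM) and RGS5 (1.73 RPKM).

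MiRNAs of mesenchymal cells showed the same direction. Of the 9 names of the miR-143, miR-145, miR-199 and miR-214 genes, all tested, 4 were called higher in LD, where 10.4% of all tested miRNAs were. All 9 were at an unadjusted p under 0.05, as were 72 (29.9%) of all tested miRNAs, and their median log2 fold change was 0.93. The 4 were ssc-miR-199b-3p (log2 fold change 1.18), ssc-miR-145-5p (1.15), ssc-miR-199a-3p (1.12) and ssc-miR-199b-5p (1.09). All 4 lay close to the limit, and with voom on recovered reads 4 names of the list were called. Giving each library the same median lowers every log2 fold change by the same amount. It took the median of all tested miRNAs from 0.30 to -0.09, and these 4 would then fall short of the limit. The 9 names summed to 37426 RPM in JH1, 25385 RPM in JH2, 30449 RPM in JH3, 61677 RPM in LD1, 49353 RPM in LD2 and 55976 RPM in LD3, and the fold of the means was 1.79. JH1, the lowest library in DLK1-DIO3 miRNAs, was the highest of its breed in this list, while LD2 was the lowest of its breed in both. The miRNAs of hepatocytes summed to 518287 to 576414 RPM in JH and 437337 to 487263 RPM in LD, and none of the 8 tested was called or reached an unadjusted p under 0.05.

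The other lists gave few calls. Of the miRNAs, 1 of 3 tested was called in the muscle list, 0 of 2 in the endothelial, 0 of 3 in the erythroid, 0 of 4 in the leukocyte and 0 of 4 in the neural list, with 2, 0, 0, 1 and 1 at an unadjusted p under 0.05 in limma. Their median log2 fold changes were 0.95, -0.09, -0.61, 0.23 and 0.18 in the same order, against 0.30 for all tested miRNAs. With voom on recovered reads, the muscle list had 2 calls, the neural list 1 and the other 3 lists 0. Of the mRNA lists, the bile duct list had 1 call of 2 tested (EPCAM) and the erythroid list 1 of 2 (HBB), both higher in LD. No gene was called in limma among 7 hepatocyte, 4 smooth muscle, 6 endothelial, 5 macrophage and lymphocyte, 3 fetal and progenitor and 3 proliferation genes, of which 4, 2, 2, 1, 0 and 1 were at an unadjusted p under 0.05. Median log2 fold changes were 1.81 for bile duct, 1.38 for erythroid, 1.07 for smooth muscle, 0.57 for endothelial and 0.40 for hepatocyte genes. They were 0.19 for proliferation, 0.10 for fetal and progenitor and -0.41 for macrophage and lymphocyte genes, against -0.04 for all tested genes. The hepatocyte genes summed to 57150 to 69271 RPKM in JH and 72113 to 85588 RPKM in LD. Of the 7 tested hepatocyte genes 6 had a higher mean log2 level in LD and 1, APOA1, a lower one. APOA1 was at 10301 to 22277 RPKM in JH and 7399 to 10116 RPKM in LD, with a log2 fold change of -0.90. The hepatocyte genes ALB, TF, TTR and CPS1 were abundant in all libraries, while MYH11, APOB and CD163 were listed at 0 in all.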

How the data were processed

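Small RNA and mRNA of 3 JH and 3 LD livers were read from the tables of the authors. For small RNA the authors removed adapters and poor reads, matched the clean reads to known small RNAs (miRBase, Rfam and a piRNA bank), predicted further miRNAs with Mireap, and deposited RPM values. For mRNA they aligned single reads to an earlier pig genome build with TopHat2 2.0.13 (submitters' processing notes), counted them with gfold, and the authors deposited RPKM values. The authors used edgeR and DEGseq, which need counts, and their limits for p and fold change were kept for miRNAs. Here limma 3.58.1 under R 4.3.3 (lmFit, then eBayes with its trend option) was run on log2(RPM + 0.5), for miRNAs with 1 RPM or more in at least 3 libraries, and on log2(RPKM + 0.1), for genes with 0.5 RPKM or more in at least 3 libraries. Entries of a repeated identifier were left out. The fits were tested on simulated data.

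Clean reads per library were found as the number that turned all low values (under 2000 reads) into whole reads within 0.1. Depth limits the low members, since a value in JH often rests on 10 to 37 reads. Members and lists were chosen with earlier results of these data known. Libraries were grouped by their labels, and nothing beyond separate pigs is stated about the replicates. Log2 fold change, SE and adjusted p were given for the called members, ssc-miR-370 among them. Members under the filter, such as ssc-miR-382, were given with their RPM alone in the main results. Lists of the locus, imprinted genes, hepatocyte, mesenchymal, stellate and fibroblast, smooth muscle, muscle, endothelial, bile duct, erythroid, leukocyte, macrophage and lymphocyte, neural, fetal and progenitor and proliferation markers were read from the same fits. Alternatives were other pseudocounts, no filter, other scalings, the replicate block, voom, 9 reads for a listed 0 and each library left out. Python 3.11.15, pandas 2.3.3, numpy 2.4.6 and matplotlib 3.10.9 made the tables and plots.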

Additional observations from a re-analysis of the deposited data

How the results depend on the processing

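The members tested on the levels of both breeds, ssc-miR-127 and ssc-miR-370, kept a higher level in LD under all 15 alternatives. Of these, ssc-miR-127 was called in 15 and ssc-miR-370 in 14. The direction of ssc-miR-369, ssc-miR-411 and ssc-miR-758 was fixed by the filter. Of the 5 called members, 3 were called with adjusted p, 3 with the same median in each library, 3 with 9 reads in place of each listed 0 (chosen after seeing the data) and 1 with a pseudocount of 5. With a pseudocount of 5 the log2 fold changes short of the limit were 0.39 for ssc-miR-369, 0.95 for ssc-miR-370, 0.41 for ssc-miR-758 and 0.34 for ssc-miR-411, since a larger pseudocount shrinks low values. With 9 reads for a listed 0 they were 0.67 for ssc-miR-369 and 0.71 for ssc-miR-411, and under quantile normalization 0.96 for ssc-miR-411. With the same median in each library ssc-miR-758 (1.13) and ssc-miR-411 (1.22) missed the p limit. Over all miRNAs 25 were called higher in LD and 5 in JH, but 10 and 10 with the same median and 12 and 8 under quantile normalization, which moved the median of all tested miRNAs from 0.30 to -0.09 and -0.06. The median log2 fold change of the tested members, 3 of which entered through LD alone, was 1.61 and carries no support. It was 2.41 with a pseudocount of 0.1, 0.41 with one of 5 and 2.98 with voom on recovered reads (chosen after seeing the data). The log2 ratio of the summed RPM was 1.66, and 2.59 without ssc-miR-127. With no filter 11 members could be tested and 6 were called, ssc-miR-382 (1.41) being the sixth. Without 1 library each, 5 members were called every time, and the log2 ratio of the sums lay between 1.33 and 1.98.

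Over the whole tables the deviations of same-numbered libraries correlated with r of -0.07, -0.32 and -0.09 in miRNA and -0.02, 0.05 and 0.18 in mRNA. Of the 3 JH libraries, 0 in miRNA and 1 in mRNA correlated best with their own number. Single genes could still follow the number. RN18S was highest in JH3 and LD3 (62257 and 20160 RPKM) and lowest in JH2 and LD2 (1570 and 2108 RPKM). Whether the replicate numbers mark a shared step was not tested. With the replicate block 5 members were called (the adjusted p of ssc-miR-127 from limma was 0.059), 29 of all miRNAs in place of 30, and 253 genes in place of 310. Of the locus genes, 0 were called, but 2 with the block (SLC25A47 and SLC25A29, adjusted p 0.0112 and 0.0166), 1 with a pseudocount of 1, 1 under quantile normalization and 0 to 2 without 1 library each. EVL ranged from -0.44 to 0.27, changing sign without JH replicate 2 (0.27) and LD replicate 3 (0.0014), and DYNC1H1 from -0.17 to 0.24, changing sign without JH replicate 3 (-0.08) and LD replicate 2 (-0.17). Of 45 tested cell marker genes 8 were called, 4 with no filter on low values and 2 to 9 without 1 library each. The edgeR alternative was not run, because the recovered reads, which hold no value under 10 reads, did not pass a check of their unit as counts. Voom was run on them in its place. The cause of these changes was not tested.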
